A study of Drosophila melanogaster with 24 samples.

Results

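Female heads were compared with male heads in old H3.3K36R Drosophila melanogaster, flies aged 21 to 25 days whose only histone H3.3 carries arginine in place of lysine 36. The comparison used every library labelled as an old H3.3BK36R head, 3 female and 3 male of the 24 libraries in the series, and each library came from a pool of 10 to 25 flies. Of 17606 genes in the deposited table, 12493 had at least 10 normalized counts in at least 3 of the 23 libraries analysed and were tested, and 2454 of these differed between the sexes. The series holds whole heads of both sexes, 2 genotypes and 2 ages (21 to 25 and 0 to 2 days), each with 3 replicates, sequenced as 100 nt paired-end reads of total RNA depleted of ribosomal RNA. H3.3K36R flies carry the missense change at the X-linked H3.3B gene together with a null allele of H3.3A (2x1) over the deficiency Df(2L)Bsc110, so females carry the change on both X chromosomes and males on their single X. H3.3Anull flies, labelled H3.3Adelta, share the H3.3A null allele and the deficiency but keep wild-type H3.3B, and served as the study's control. Every group thus lacks H3.3A, and no fly in the series was wild type at both genes. Whether the females had mated is not given in the sources used here.

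Sex in flies is set cell by cell. In females the splicing regulator Sxl directs the female splicing of tra, and tra with tra2 directs that of dsx and fru, while in males the MSL complex, built on the RNAs roX1 and roX2, raises transcription of the single X. In the head, much of the known sex difference lies in the fat body around the brain, where dsx controls yolk protein genes and a set of enzymes and secreted proteins. H3.3 replaces the replicative histone H3 in the chromatin of cells that no longer divide, such as neurons, and lysine 36 of histone H3 is methylated over the bodies of transcribed genes.

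All 6 libraries carried the sex of their labels. roX1 (lncRNA:roX1) had 1368, 1471 and 1586 normalized counts in females, against 60874, 63749 and 62003 in males, and Y-linked genes summed to between 6.92 and 13 normalized counts in females, against 378 to 655 in males. Reads counted on genes ranged between 21263006 and 26056377 per library. The libraries nevertheless differed within each sex. Of 3011 autosomal genes that were near silent across the series, the share with any read was 11%, 31.6% and 59.3% in females, against 25.4%, 28.9% and 61.7% in males, highest in replicate 3 of both sexes. The 3 yolk protein genes held 12.3%, 8.07% and 5.89% of reads in females, against 0.345%, 0.0251% and 0.0187% in males, highest among males in replicate 1. Young male H3.3K36R replicate 2 is the library that the study removed and was left out of every value here unless stated. His3.3B, the gene that carries the K36R change, had 25671, 22291 and 23565 normalized counts in females, against 19876, 19204 and 19583 in males (log2 fold change 0.28 ± 0.10, adjusted p = 0.0558), and His3.3A had 479, 494 and 405 normalized counts in females, against 419, 415 and 348 in males. Neither H3.3 gene passed the test between the sexes. His3.3A overlaps Nepl3 on the other strand, and the source of its reads was not tested.

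In this comparison 1244 genes were higher in females (9.96% of those tested) and 1210 were higher in males (9.69%), together 19.6% of the tested genes, by limma at an adjusted p below 0.05. The female-higher differences were the larger ones. Their median log2 fold change, female over male, was 0.76, against −0.46 for the male-higher genes, and the median over all tested genes was −0.04. A log2 fold change beyond 1 was reached by 481 genes (3.85%), 378 higher in females (3.03%) and 103 higher in males (0.824%). Differences under 1.5-fold made up 1337 of the 2454. In 2416 of the 2454 the 3 female and the 3 male libraries did not overlap, which was so for 41.1% of all tested genes, 18.9% with females above males and 22.2% with males above females. Without male replicate 2 the number of called genes was 1581, and with any other of the 6 libraries left out it was between 1682 and 2276. Since RNA came from whole heads, fewer cells of a type and less RNA per cell cannot be told apart in any of these values.

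**Figure D1:**
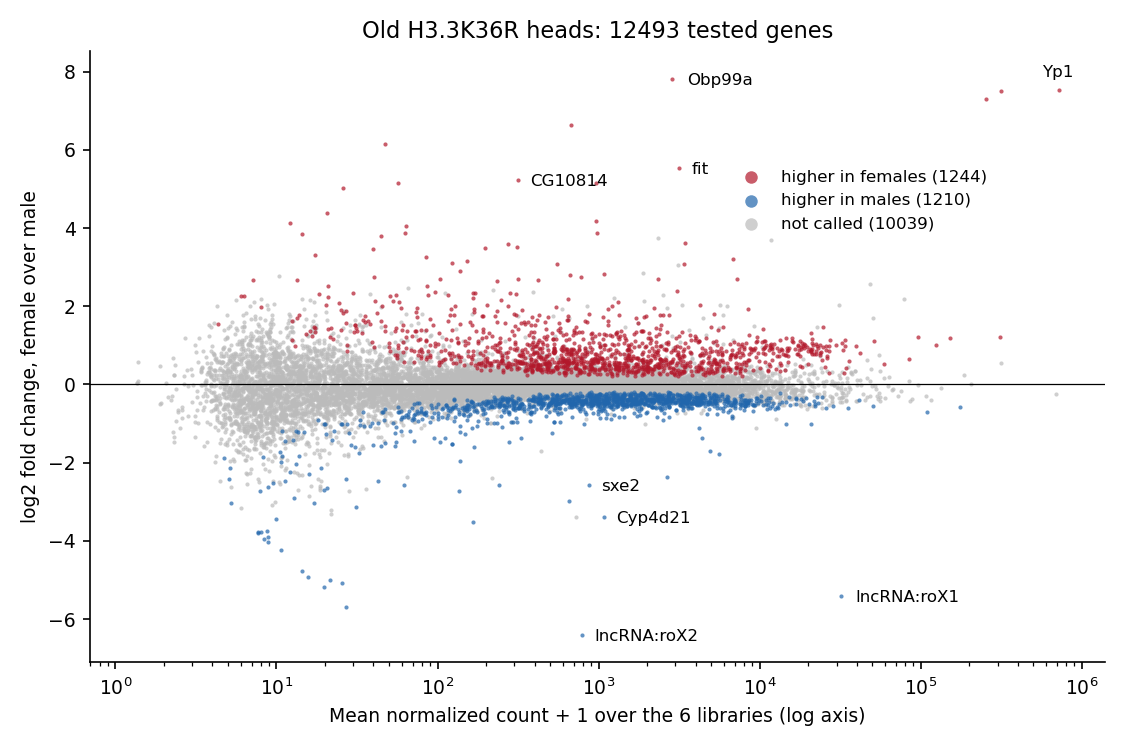
Each point is a tested gene, with its mean normalized count plus 1 over the 6 old H3.3K36R libraries on a log axis against its log2 fold change, female over male. Red points are the 1244 genes higher in females, blue points the 1210 higher in males and grey points the genes not called, and the female-higher genes reach larger fold changes across most of the range of levels.

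The largest differences toward females, among called genes with a mean of at least 50 normalized counts and no overlap between the 6 libraries, lay in yolk and fat body genes. Obp99a (3R from 29671657 to 29672334 on dm6), an odorant-binding protein family member, had 8388, 5735 and 2966 normalized counts in females, against 66.2, 12.6 and 12.5 in males (log2 fold change 7.82 ± 0.96, adjusted p = 2.86e-05, where ± is the SE). All 3 yolk protein genes, which encode the secreted proteins that oocytes take up as yolk, followed. Yp1 (X from 10053811 to 10055498) had 1912863, 1354107 and 986718 normalized counts in females, against 51098, 3325 and 2369 in males (log2 fold change 7.53 ± 1.33, adjusted p = 0.000567). Yp2, its divergently transcribed neighbour, had 972955, 526338 and 357343 normalized counts in females, against 18809.6, 1454 and 1104 in males (log2 fold change 7.51 ± 1.32, adjusted p = 0.000559). Yp3, farther along the X, had 876568, 395088 and 244973 normalized counts in females, against 14770.1, 1348 and 1077 in males (log2 fold change 7.30 ± 1.24, adjusted p = 0.000406). In each of these 4 genes the lowest female was far above the highest male, and the highest male was replicate 1. Without male replicate 1 the log2 fold changes were 8.93 for Yp1, 8.51 for Yp3 and 8.59 for Obp99a. fit (3R from 21883924 to 21884454), a female-biased gene of the head fat body, had 9549.7, 6143 and 2883 normalized counts in females, against 217, 109 and 69 in males (log2 fold change 5.54 ± 0.84, adjusted p = 0.000163).

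Other genes with the largest female-over-male values included RNAs that overlap these genes. asRNA:CR45601, transcribed from the strand opposite to Yp1, had 1739, 1326 and 926 normalized counts in females, against 62.9, 3.44 and 6.70 in males. asRNA:CR45046, which overlaps fit on the same strand, had 1781, 2674 and 1187 normalized counts in females, against 66.2, 36.7 and 49.8 in males. Their reads cannot be fully told apart from those of the genes they overlap. Ndg (2R from 10313891 to 10322104), the basement membrane protein nidogen, had 2486, 1504 and 1472 normalized counts in females, against 115, 92.9 and 86.2 in males (log2 fold change 4.17 ± 0.50, adjusted p = 2.52e-05). CG10814 had 463, 415 and 959.9 normalized counts in females, against 29.3, 5.73 and 16.3 in males, with a log2 fold change of 5.23. CG33462 had 76, 172 and 76.1 normalized counts in females, against 0, 6.88 and 1.92 in males, with a log2 fold change of 5.15. The remaining genes of the 12 with the largest female excess above that level were noncoding RNAs. lncRNA:CR46482, which overlaps the translation factor gene eIF4B on the same strand, had 2107, 1692 and 1702 normalized counts in females, against 188, 94 and 108 in males (log2 fold change 3.87 ± 0.34, adjusted p = 1.25e-06). asRNA:CR45629 had 133, 115 and 111 normalized counts in females, against 5.42, 5.73 and 7.66 in males.

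**Figure D2:**
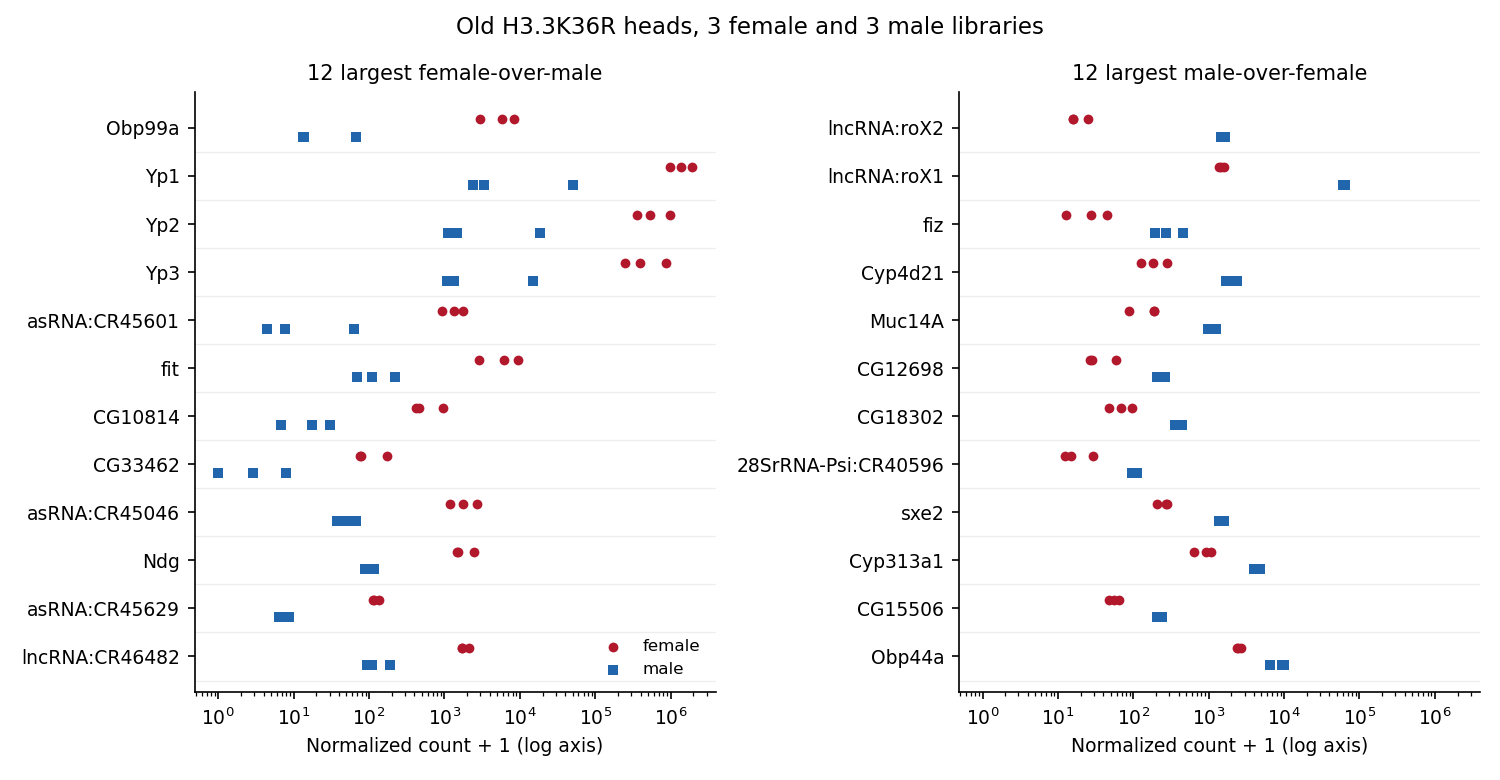
Normalized count plus 1 on a log axis in each old H3.3K36R library for the 12 genes with the largest female-over-male (left) and the 12 with the largest male-over-female (right) log2 fold change among called genes with a mean of at least 50 normalized counts, females as red circles above males as blue squares. The sexes do not overlap in any of the 24 genes by the rule that chose them, and 1 male library (replicate 1) stands above the other males for the yolk protein genes, Obp99a and asRNA:CR45601.

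With the same limits, the largest male excess lay in the RNAs of dosage compensation, while some Y-linked genes of lower level had larger fitted values. lncRNA:roX2 (X from 11579065 to 11580432) had 14.7, 23.8 and 15 normalized counts in females, against 1542, 1658 and 1457 in males (log2 fold change −6.40 ± 0.90, adjusted p = 8.45e-05), and lncRNA:roX1, whose values are given above, had a log2 fold change of −5.40 ± 0.81 (adjusted p = 0.000142). msl-2, the MSL subunit whose protein is made only in males, had 922, 897 and 1090.2 normalized counts in females, against 1652, 1700.5 and 1769 in males (log2 fold change −0.82 ± 0.09, adjusted p = 7.46e-06). These were the only 3 of the 9 dosage compensation genes tested that passed the test, all toward males, against 9.69% of all tested genes. By DESeq2 2 passed and under upper-quartile scaling 4, all toward males. The remaining members had small differences. msl-3, another MSL subunit, had a log2 fold change of −0.31 (adjusted p = 0.0504), and the acetyltransferase mof had −0.20 (adjusted p = 0.303). The other 4, among them the helicase mle (−0.08), lay between −0.08 and 0.05.

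Of the 7 sex determination genes, 2 were called, both toward females, against 9.96% of all tested genes. Sxl had 23337, 25428 and 25718 normalized counts in females, against 12853, 12589 and 11970.0 in males (log2 fold change 0.99 ± 0.16, adjusted p = 0.000235). tra had 669.5, 815 and 808 normalized counts in females, against 602, 529 and 613 in males (log2 fold change 0.39 ± 0.10, adjusted p = 0.0103). Total gene counts do not separate the sex-specific splice forms of these genes. dsx, which acts at the end of this cascade, had 3230.4, 2741 and 2683 normalized counts in females, against 2925, 2474 and 2760.2 in males (log2 fold change 0.08 ± 0.30, adjusted p = 0.894), so its libraries overlapped. fru, the courtship regulator, had 6665, 5713 and 6297 normalized counts in females, against 7643, 7182 and 7407 in males, with every female below every male, yet did not pass the test (log2 fold change −0.25, adjusted p = 0.169). tra2, ix and her had log2 fold changes of −0.18, −0.05 and −0.25, none of them called. tra lost its call without female replicate 2 (adjusted p = 0.0517) or male replicate 2 (0.0653) and under upper-quartile scaling, which added 1 call toward males.

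Enzymes of the male head were also among the genes with the largest male excess. Cyp4d21 (2L from 7605600 to 7607701), also named sxe1 and a cytochrome P450 of the male head fat body, had 277, 183 and 125 normalized counts in females, against 2379, 1711 and 1791 in males (log2 fold change −3.38 ± 0.30, adjusted p = 1.25e-06). sxe2 (3R from 16083878 to 16087222), a lipase-like gene controlled by the sex determination pathway, had 279, 268 and 205 normalized counts in females, against 1488, 1574 and 1377 in males (log2 fold change −2.57 ± 0.20, adjusted p = 4.77e-07). Cyp313a1 (3R from 14521049 to 14523064), another P450, had 1060.3, 935 and 644 normalized counts in females, against 4772, 4629 and 3945 in males (log2 fold change −2.36 ± 0.18, adjusted p = 3.53e-07). The spread within each sex was small against these gaps. In the list of 6 sex-regulated head fat body genes, Obp99a and fit were called toward females and Cyp4d21 and sxe2 toward males. Of all tested genes 9.96% were called toward females and 9.69% toward males. Obp99b, an odorant-binding protein family member, had 41.3, 109 and 349.6 normalized counts in females, against 1235, 892 and 1679.9 in males, with every male above every female but an adjusted p of 0.0679. The feeding regulator to had 292, 333 and 149 normalized counts in females, against 361, 232 and 189 in males and overlapped between the sexes.

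The other genes of the 12 with the largest male excess above a mean of 50 normalized counts were more varied. fiz (X from 14906334 to 14909708), of the glucose-methanol-choline oxidoreductase family, had 12, 43.3 and 26.5 normalized counts in females, against 191, 273 and 450.1 in males (log2 fold change −3.52 ± 0.59, adjusted p = 0.00035). Muc14A, a mucin, had 86.7, 185 and 186 normalized counts in females, against 975, 1229 and 1243 in males (log2 fold change −2.98 ± 0.73, adjusted p = 0.0071). Its near neighbour on the X, CG12698, had 25.3, 27 and 57.7 normalized counts in females, against 229, 263 and 203 in males (log2 fold change −2.72 ± 0.73, adjusted p = 0.0122). CG12698 was the 1 gene of the 24 that lost its call under an alternative, with an adjusted p of 0.0521 without female replicate 1. Obp44a (2R from 8134170 to 8135315), an odorant-binding protein family member, had 2397, 2659 and 2426 normalized counts in females, against 6434, 9475 and 10018 in males (log2 fold change −1.77 ± 0.29, adjusted p = 0.000344). CG18302 had 68, 94.1 and 47.3 normalized counts in females, against 360.0, 440.3 and 419 in males. CG15506 had 54.7, 63.8 and 47.3 normalized counts in females, against 203, 241 and 209 in males. 28SrRNA-Psi:CR40596 is annotated as a pseudogene of the 28S ribosomal RNA within the ribosomal DNA, whose repeats share sequence, so its 28, 14.1 and 11.5 normalized counts in females, against 109.5, 94 and 109 in males are uncertain as values of 1 locus.

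X-linked genes leaned toward females. On the X, 370 of 2011 tested genes were higher in females (18.4%) and 121 in males (6.02%), whereas on the 4 large autosome arms together 861 of 10269 were higher in females (8.38%) and 1045 in males (10.2%). The median log2 fold change was 0.10 on the X and lay between −0.08 and −0.04 on arms 2L, 2R, 3L and 3R. To compare libraries rather than genes, the mean log2 level of X-linked genes minus that of autosomal genes was taken in each. It was 0.49, 0.41 and 0.41 in females, against 0.34, 0.29 and 0.26 in males, with no overlap. The means were 0.436 ± 0.0469 in females and 0.297 ± 0.0398 in males (SD, n = 3 each), a difference of 0.14 with an exact two-sided permutation p of 0.1, the smallest that 3 against 3 libraries allow. The small chromosome 4 leaned the other way, with 5 of its 104 tested genes higher in females (4.81%) and 20 higher in males (19.2%). Its median log2 fold change was −0.23. In old H3.3Anull heads 9.80% of X-linked genes were called toward females and 3.88% toward males (median 0.08). Chromosome 4 there had 3 genes toward females (2.88%) and 13 toward males (12.5%), with a median of −0.23. In young H3.3K36R heads the X median was 0.08. Chromosome 4 had 6 genes toward females and 0 toward males at that age (median 0.17).

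**Figure D3:**
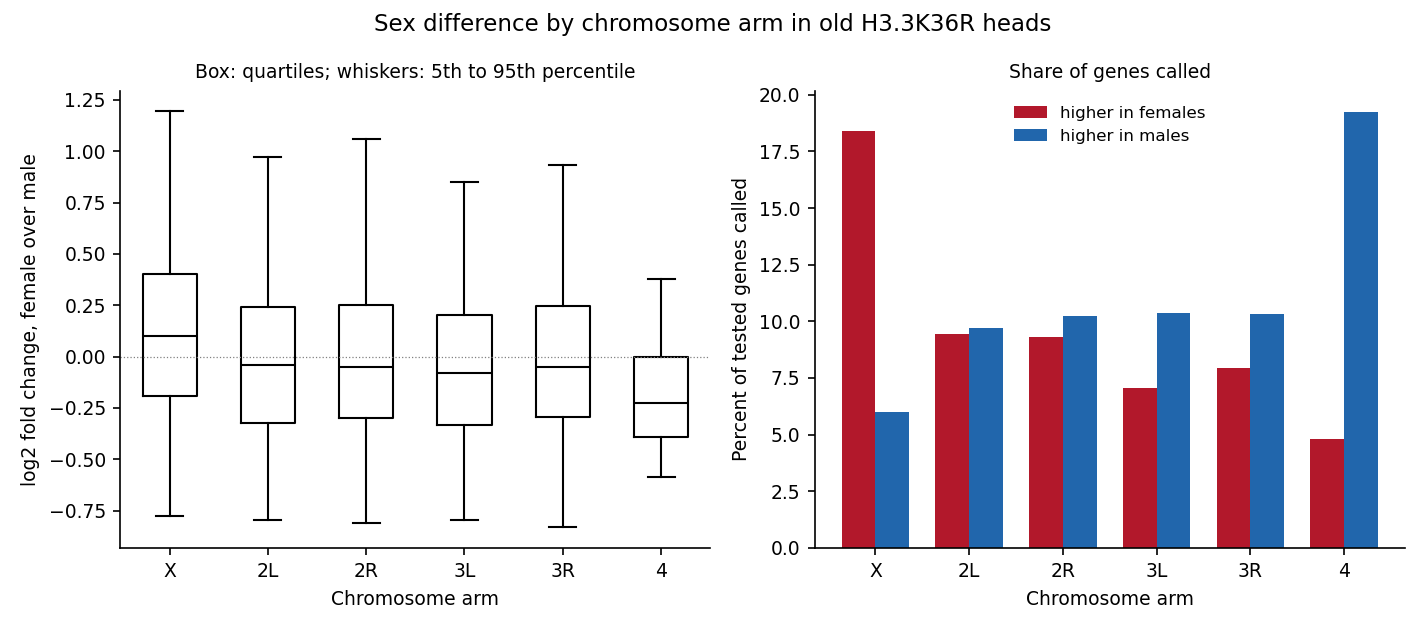
Left, log2 fold change, female over male, of the tested genes on each chromosome arm in old H3.3K36R heads, where boxes mark the quartiles and the median and whiskers reach the 5th and 95th percentiles. Right, the percent of the tested genes of each arm called higher in females (red) or in males (blue), in which the X has the largest female-higher share (18.4%) and chromosome 4 the largest male-higher share (19.2%).

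Of the 113 Y-linked genes measured, 13 passed the filter on low counts, and 10 of these 13 were at 0 in every old H3.3K36R female library. Such genes pass the filter only through libraries in which they have reads, the males of this comparison among them, so the direction of their calls was not free to vary. All 13 were called toward males, against 9.69% of all tested genes, and nothing is read from that count. kl-2, which encodes an axonemal dynein chain of the sperm tail, had 0, 0 and 0 normalized counts in females, against 49.9, 39 and 68 in males, and the floor of 3 reads over the 3 female libraries makes it at least 44.3-fold higher in males. For the 10 genes at 0 in every female library this bound lay between 11.3-fold and 44.3-fold. kl-3, a further dynein chain, had 1.33, 0 and 0 normalized counts in females, against 31.4, 33.3 and 80.5 in males, and FDY had 0, 1.08 and 0 normalized counts in females, against 54.2, 33.3 and 34.5 in males, so each of these had reads in 1 female library. Of the 13 genes 6 belong to the Su(Ste) repeats, near-identical copies whose reads can be divided between them in counting, so their single values are uncertain. The median log2 fold change of the 13 was −3.96 as fitted, and −3.72 with the 10 at their bound. In old H3.3Anull heads Y-linked genes summed to 46.8, 46.1 and 36.8 in females, against 98.9, 136 and 138 in males, so H3.3Anull males held fewer such reads than H3.3K36R males and H3.3Anull females more than H3.3K36R females. The median of the 13 genes there was −1.59, with 1 of 13 called toward males, as were 5.04% of all tested genes.

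Genes for cytoplasmic ribosomal proteins moved together toward females. Of 84 tested, 80 were higher in females and none higher in males, against 9.96% of all tested genes called toward females, and the median log2 fold change was 0.90. Among the 80 the log2 fold changes ranged between 0.48 (RpS14b) and 1.15 (RpLP1). RpLP1, an acidic protein of the ribosomal stalk, had 19981, 19017 and 16439.8 normalized counts in females, against 8722, 8618 and 7648 in males (log2 fold change 1.15 ± 0.14, adjusted p = 2.86e-05). RpL37-1 had 22729.8, 22507 and 19892 normalized counts in females, against 10267, 9762 and 9828 in males (log2 fold change 1.12 ± 0.12, adjusted p = 6.32e-06). RpS19a had 16025, 15906 and 12597 normalized counts in females, against 6990.3, 6864 and 6514 in males (log2 fold change 1.12 ± 0.13, adjusted p = 1.5e-05). In all 80 the female and male libraries did not overlap, which was so in 2416 of the 2454 called genes. Females lay above males without overlap in 18.9% of all tested genes. The 4 genes not called were RpS5b, RpS15Ab, RpL24-like and RpS16, of which RpS16 had a log2 fold change of 1.06 and an adjusted p of 0.0514. Leaving out any 1 library gave 76 to 79 calls, and upper-quartile scaling gave 78, all toward females. Toward females 79 were called in old H3.3Anull heads (7.02% of all tested genes), with a median of 0.88, and all 79 were also called in H3.3K36R. None of the 84 differed between the genotypes in its sex difference by limma, against 0.048% of all tested genes, and none had an unadjusted p below 0.05 or was called by edgeR or DESeq2. In young H3.3K36R heads the median was 0.36 and none was called by limma, against 0.905% of all tested genes called toward females, while 53 had an unadjusted p below 0.05, edgeR called 0 and DESeq2 8.

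**Figure D4:**
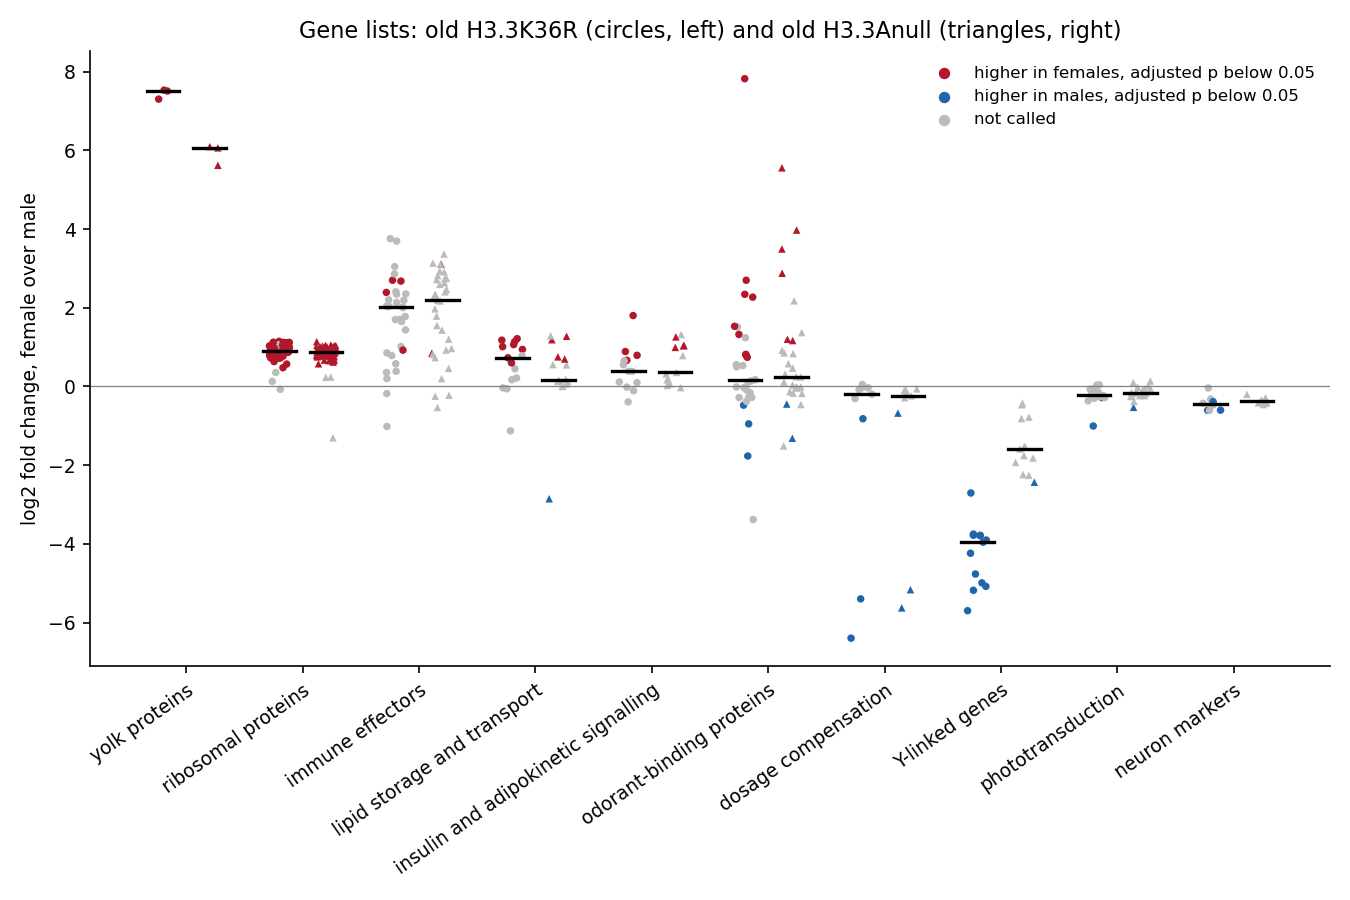
Log2 fold change, female over male, of each tested member of 10 gene lists in old H3.3K36R heads (circles, left) and old H3.3Anull heads (triangles, right), with a black bar at the median of each list. Red and blue mark members called higher in females and in males, and the ribosomal protein genes form a tight cluster with medians of 0.90 in H3.3K36R and 0.88 in H3.3Anull.

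Immune effector genes had mostly positive fold changes but varied widely between libraries. Of 33 tested antimicrobial and immune effector genes 31 had a positive log2 fold change and the median was 2.01, and 4 passed the test, all toward females and all of the Bomanin family of secreted Toll-pathway peptides, a share near the 9.96% of all tested genes called in that direction. The number toward females was 9 with library weights, 10 by DESeq2 and 13, with 1 toward males, in a fit of the compared groups alone. BomS5 had 2401, 7311 and 5802 normalized counts in females, against 517, 1624 and 837 in males (log2 fold change 2.39 ± 0.51, adjusted p = 0.0026). BomS1 had 1715, 4701 and 5737 normalized counts in females, against 363, 1188 and 388 in males (log2 fold change 2.7 ± 0.85, adjusted p = 0.0288). BomT1 had 169, 834 and 1244 normalized counts in females, against 64, 143 and 70.9 in males (log2 fold change 2.68 ± 0.82, adjusted p = 0.0263). Female replicate 1 was the lowest female in these 3 genes, and no male reached it. BomS4 had 357, 366 and 237 normalized counts in females, against 162, 165 and 169 in males (log2 fold change 0.92 ± 0.24, adjusted p = 0.0103). The number called was 1 without female replicate 2, 2 without female replicate 3, male replicate 1 or male replicate 3, and 6 without male replicate 2. Without the libraries that cost them the call the adjusted p was between 0.0926 and 0.102 for BomS1, 0.0833 and 0.115 for BomT1 and 0.0505 and 0.0516 for BomS4. In old H3.3Anull heads the median was 2.19, with 2 called toward females, a share near the 7.02% of all tested genes. In young H3.3K36R heads the median was 0.25. None was called there by limma, edgeR or DESeq2 or had an unadjusted p below 0.05, against 0.905% of all tested genes called toward females by limma. The Turandot stress peptides stood highest in replicate 1 of both sexes, most of all in the female. TotA had 11010.1, 1562 and 1515 normalized counts in females, against 3139, 1012 and 858 in males (log2 fold change 1.08, adjusted p = 0.417), with female replicate 1 above all others, and none of the 4 tested members was called by limma, edgeR or DESeq2, with 1 at an unadjusted p below 0.05. Of 16 heat shock protein genes 1 was called, no more than the 9.69% of all tested genes called toward males, the small heat shock protein Hsp67Ba toward males with 311, 382 and 430.3 normalized counts in females, against 465, 461 and 651 in males (log2 fold change −0.48 ± 0.14, adjusted p = 0.0219), and it lost the call without female replicate 1 (adjusted p = 0.132) or male replicate 3 (0.151).

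Of 15 tested genes of lipid storage and transport, 8 were called toward females and none toward males, against 9.96% and 9.69% of all tested genes, with a median of 0.73. In a fit of the compared groups alone 10 were called toward females and 1 toward males. The lipoprotein genes came first. apolpp, which encodes the main lipid carrier of the hemolymph, had 616924, 411663 and 292210.4 normalized counts in females, against 201971, 164456 and 178603 in males (log2 fold change 1.21 ± 0.29, adjusted p = 0.0064). Apoltp, a lipid transfer particle protein, had 43955, 36318 and 32097 normalized counts in females, against 18932, 14945 and 17079 in males (log2 fold change 1.14 ± 0.16, adjusted p = 8.45e-05). Mtp, which lipidates these carriers, had 3588, 2609 and 2322 normalized counts in females, against 1629.9, 1359.9 and 1383 in males (log2 fold change 0.94 ± 0.19, adjusted p = 0.00183). The enzymes of fatty acid synthesis were higher in females as well. FASN1, the fatty acid synthase, had 185078, 174865 and 140681 normalized counts in females, against 71629, 84212 and 91987 in males (log2 fold change 1.01 ± 0.29, adjusted p = 0.0169). ACC, the acetyl-CoA carboxylase that feeds it, had 58725, 39528 and 34835 normalized counts in females, against 24352, 18707 and 19394 in males (log2 fold change 1.06 ± 0.27, adjusted p = 0.00956). The droplet protein Lsd-2, the acyltransferase mdy and the glycerol phosphate dehydrogenase Gpdh1 were the other members called, with log2 fold changes of 0.73, 0.60 and 1.18. The lipases Hsl and bmm were not called. Without female replicate 1 the number called was 5, and it was between 6 and 8 without any other library. The calls lost were those of ACC without female replicate 1 (adjusted p = 0.0638), FASN1 without female replicate 1, female replicate 2 or male replicate 1 (0.0534 to 0.0669) and mdy without female replicate 1, female replicate 2, male replicate 2 or male replicate 3 (0.0664 to 0.152). In old H3.3Anull heads 4 were called toward females, against 7.02% of all tested genes, and 1, the methyltransferase Gnmt, toward males, against 5.04%, and FASN1 and ACC had log2 fold changes of 0.18 and 0.06 there. The sex difference of neither enzyme differed between the genotypes by the test (adjusted p = 0.936 and 0.774).

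Of 13 insulin and adipokinetic signalling genes 4 were called, all toward females, against 9.96% of all tested genes. The number was 3 under upper-quartile scaling or with no filter and 6 in a fit of the compared groups alone, toward females each time. Ilp5, made in the insulin-producing cells of the brain, had 558, 476 and 353 normalized counts in females, against 147, 126 and 117 in males (log2 fold change 1.80 ± 0.26, adjusted p = 0.000113). Ilp2, from the same cells, had 1124, 1125 and 959.9 normalized counts in females, against 643, 533 and 557 in males (log2 fold change 0.89 ± 0.17, adjusted p = 0.00125). Ilp3, also from these cells, had 140.0, 146 and 245 normalized counts in females, against 160.5, 179 and 137 in males and overlapped. Ilp6, the fat body insulin-like peptide, had 1576, 2141 and 1899 normalized counts in females, against 1164, 1128 and 1223 in males (log2 fold change 0.67 ± 0.16, adjusted p = 0.00728). AkhR, the receptor of adipokinetic hormone, had 946, 1063 and 734 normalized counts in females, against 395, 620.3 and 579 in males (log2 fold change 0.79 ± 0.27, adjusted p = 0.0415), and kept its call without female replicate 3 but lost it without any other of the 6 (adjusted p between 0.051 and 0.184). The receptor substrate chico and the transcription factor foxo were not called. In old H3.3Anull heads 4 of the 13 were also called, all toward females, against 7.02% of all tested genes. The median of the list was 0.36 there and 0.39 in H3.3K36R. Ilp2 had a log2 fold change of 0.07 and Ilp5 of 0.78 in H3.3Anull, neither called. For these 2 genes the difference between the genotypes did not pass (adjusted p = 0.47 and 0.742).

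In the juvenile hormone pathway 1 of 12 genes was called in each direction, near the 9.96% of all tested genes called toward females and the 9.69% called toward males. These were the hydrolase Jheh1 toward males with 1649.9, 2004 and 1315 normalized counts in females, against 2561, 3095 and 3104 in males (log2 fold change −0.83 ± 0.20, adjusted p = 0.0066) and the binding protein Jhbp1 toward females with 2121, 1942 and 1375 normalized counts in females, against 1254, 1035 and 1067 in males (log2 fold change 0.68 ± 0.15, adjusted p = 0.00303). In the ecdysone pathway 1 of 13 genes was called, near the same share, the nuclear receptor Eip78C toward males (log2 fold change −0.44 ± 0.11, adjusted p = 0.00973), but not without male replicate 2 (adjusted p = 0.0578). Library weights gave 2 calls toward females and 3 toward males in the first pathway, and 1 and 4 in the second. Of 6 storage proteins of larval fat body origin 1 was called, toward females, against 9.96% of all tested genes. The number was 2 by DESeq2 or in a fit of the compared groups alone. Lsp1beta had 21267, 12625 and 3731 normalized counts in females, against 1297, 779.7 and 1233 in males (log2 fold change 3.22 ± 0.96, adjusted p = 0.0227) and lost the call without female replicate 1, female replicate 2, male replicate 2 or male replicate 3 (adjusted p between 0.0545 and 0.109). Its relative Lsp2 had 142305, 72941 and 34212 normalized counts in females, against 21489, 7741 and 10484 in males, in which all females lay above all males with an adjusted p of 0.0897. The other 4 of these 6 genes were not called. Among 10 genes of pheromone and cuticular hydrocarbon synthesis FASN1 and the reductase spidey were called, both toward females, against 9.96% of all tested genes (4 genes with library weights), of which FASN1 lost its call without female replicate 1, female replicate 2 or male replicate 1 (adjusted p between 0.0534 and 0.0669), and Desat1, the desaturase, had 64146, 79373 and 64164 normalized counts in females, against 41034, 41268 and 39589 in males with an adjusted p of 0.0822.

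Of 82 tested genes whose symbol begins with Cyp, the prefix of the cytochrome P450 detoxification family, 12 were called toward females and 9 toward males, shares near the 9.96% and 9.69% of all tested genes, and 21 and 9 in a fit of the compared groups alone. One of the 12, Cyp1, encodes a cyclophilin and no P450. Toward females the largest were Cyp4d1 with 169, 77.9 and 94.6 normalized counts in females, against 42.3, 19.5 and 29.7 in males (log2 fold change 1.85 ± 0.35, adjusted p = 0.000875) and Cyp6d2 with 580.2, 448 and 520.3 normalized counts in females, against 207, 143 and 167 in males (log2 fold change 1.59 ± 0.29, adjusted p = 0.000715). Cyp18a1, which breaks down the molting hormone, had 1224, 1033 and 966 normalized counts in females, against 390.4, 432 and 452 in males (log2 fold change 1.33 ± 0.21, adjusted p = 0.000233). Toward males Cyp4d21 and Cyp313a1, given above, were followed by Cyp4d14 with 17.3, 6.49 and 21.9 normalized counts in females, against 46.6, 47 and 38.3 in males (log2 fold change −1.61 ± 0.46, adjusted p = 0.0176), which lost the call without male replicate 1, female replicate 2 or male replicate 2 (adjusted p between 0.0525 and 0.113). Of 30 UDP-glycosyltransferase genes 5 were called, all toward females, against 9.96% of all tested genes, with 3 at a minimum of 50 normalized counts and 9 with library weights. Of 34 glutathione transferase genes 3 were called toward females and 1 toward males, no more than the 9.96% and 9.69% of all tested genes, with 7 and 1 under library weights. Ugt37A1 had 65.4, 35.7 and 45 normalized counts in females, against 0, 2.29 and 0 in males, with reads in a single male library, and Ugt37A3 had 892, 499.8 and 341 normalized counts in females, against 39, 43.6 and 56.5 in males (log2 fold change 3.51 ± 0.51, adjusted p = 0.000103). The glutathione transferase called toward males was GstE2 with 236, 232 and 231 normalized counts in females, against 356, 345 and 363 in males. The Cyp calls toward females were 7 without female replicate 1, and 8 without male replicate 1 or male replicate 2, and those toward males 5 without male replicate 2 and 6 without female replicate 3 or male replicate 3. The glutathione transferase calls toward females were 1 without female replicate 1 or male replicate 1 and 5 without female replicate 3, and otherwise 2.

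Of 29 odorant-binding protein genes 9 were called toward females, against 9.96% of all tested genes, and 3 toward males, a share near the 9.69% of all tested genes. Beside Obp99a, Obp56e had 12795, 13373 and 11471 normalized counts in females, against 2577, 1559 and 1779 in males (log2 fold change 2.7 ± 0.58, adjusted p = 0.00262). Obp56d had 5689.8, 6252 and 4945 normalized counts in females, against 3083, 3333 and 3133 in males (log2 fold change 0.82 ± 0.18, adjusted p = 0.00384). Obp19a was called with 1 high female library and low values elsewhere, having 13.3, 129.8 and 15 normalized counts in females, against 4.34, 4.59 and 6.70 in males, and lost the call without female replicate 2 or any 1 of the males (adjusted p between 0.0517 and 0.207). Toward males, Obp19b followed Obp44a with 375, 336 and 373 normalized counts in females, against 784, 646 and 673 in males (log2 fold change −0.95 ± 0.13, adjusted p = 4.89e-05). Obp57c had 859, 897 and 728 normalized counts in females, against 1007, 1291 and 1161 in males (log2 fold change −0.48 ± 0.14, adjusted p = 0.018). The call of Obp57c was lost without female replicate 3, male replicate 2 or male replicate 3 (adjusted p between 0.0565 and 0.0987). The number called toward females was 5 without male replicate 2 and 6 without female replicate 1, male replicate 1 or male replicate 3.

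Of 18 phototransduction genes 3 were called, all toward males, against 9.69% of all tested genes called in that direction. The number was 1 with no filter or with all 24 libraries, 5 under upper-quartile scaling, 6 by DESeq2 or with library weights and 8 in a fit of the compared groups alone, toward males each time. Rh6, the green-sensitive rhodopsin, had 8463, 10189 and 10583 normalized counts in females, against 16719.9, 20352 and 21647 in males (log2 fold change −1.0 ± 0.13, adjusted p = 5.33e-05). The kinase inaC and the G protein subunit Galphaq followed with log2 fold changes of −0.28 and −0.27. ninaE, the main rhodopsin of the outer photoreceptors, had 610707, 657947 and 636937 normalized counts in females, against 729282, 787448 and 723547 in males (log2 fold change −0.23 ± 0.24, adjusted p = 0.572), so its males lay above its females without passing. The number called was 2 without male replicate 3 and 1 without any other of the 6 libraries. Galphaq lost its call without any 1 library (adjusted p between 0.0583 and 0.182), and inaC without any but male replicate 3 (0.0774 to 0.16). None of the 9 circadian clock genes was called by limma, edgeR or DESeq2, and 1 had an unadjusted p below 0.05. Of the 12 genes of H3.3 and H3K36 biology 1 was called, near the 9.69% of all tested genes called toward males. Other settings called 0 with no filter, 2 toward males under upper-quartile scaling and 1 toward females and 3 toward males with library weights. The called gene, the methyltransferase ash1, had 2455, 2374 and 2539 normalized counts in females, against 3010.4, 2989 and 2861 in males (log2 fold change −0.27 ± 0.09, adjusted p = 0.0415), and it lost the call without any 1 of the libraries (adjusted p between 0.0552 and 0.122). Set2 and NSD, the other methyltransferases acting on this residue, had log2 fold changes of 0.04 and −0.05.

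Markers of the cell types that a head can hold moved in part with sex. Their calls stand against 9.96% of all tested genes called toward females and 9.69% called toward males, and most of these lists are short. The 8 neuron markers summed to between 168927 and 181649 normalized counts in females, against 235840 to 245665 in males. Of these Syn, futsch and nSyb were called toward males, of which futsch (adjusted p between 0.0684 and 0.132) and nSyb (0.0561 to 0.168) lost the call without any 1 library, and elav had 7749, 7989 and 7786 normalized counts in females, against 8282, 8245 and 7661 in males. The 7 photoreceptor markers summed to between 732251 and 786834 in females, against 875505 to 948062 in males. The 6 glial markers summed to between 37134 and 47575 in females, against 49994 to 53190 in males, with alrm, wrapper and repo called toward males and moody toward females. The 4 flight muscle markers summed to between 1789 and 1889 in females, against 3254 to 3649 in males, and Act79B was called, though it lost the call without any 1 library but female replicate 3 (adjusted p between 0.0558 and 0.071). The sums of the neuron, photoreceptor, glial and flight muscle markers were thus higher in every male library than in every female library. Such sums follow the members with most counts, for the photoreceptors ninaE, which was not called. Log2 fold changes were positive in 0 of 8 neuron, 1 of 7 photoreceptor, 2 of 6 glial and 1 of 4 flight muscle markers. The 6 hemocyte markers summed to between 12375 and 14204 in females, against 10112 to 11466 in males, with the transcription factor srp called toward females and the hemocyte genes Hml, NimC1 and eater not. Ovary and eggshell markers summed to between 943 and 1078 in females, against 807 to 981 in males, of which grk, which overlaps Akap200 on the other strand, had 694, 624 and 556 normalized counts in females, against 497, 485 and 436 in males and was called, but not without female replicate 1 (adjusted p = 0.0679) or male replicate 3 (0.0613). Markers of the male reproductive tract summed to between 353 and 388 in females, against 354 to 594 in males, with none of 14 called by limma or edgeR, 1 by DESeq2 and 2 at an unadjusted p below 0.05. The 24 gut markers measured, including those below the filter, summed to between 4590.4 and 20863 in females, highest in replicate 3, against 5911 to 8202 in males. The part of these cell types in the differences above was not tested.

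The same contrast was made in old H3.3Anull heads, which share no library with old H3.3K36R heads. Both contrasts take each gene's spread from the same fit, so their lists of called genes are not independent. That holds for the list of young H3.3K36R heads below as well. There 1507 genes were called (12.1%), 877 toward females (7.02%) and 630 toward males (5.04%). Of the 1244 genes higher in H3.3K36R females, 648 were also called toward females in H3.3Anull, which is 52.1% of the H3.3K36R list and 73.9% of the H3.3Anull list, and 1198 had the same sign. Of the 1210 genes higher in H3.3K36R males, 463 were called toward males in H3.3Anull (38.3% and 73.5%) and 1167 had the same sign. The median log2 fold changes of these genes were 0.76 and −0.46 in H3.3K36R, the contrast that chose them, and 0.55 and −0.31 in H3.3Anull. In H3.3Anull the number called was 840 without female replicate 1, 956 without female replicate 3 and 925 without male replicate 2. Yp1 there had 1578459.6, 908221 and 1227519 normalized counts in females, against 5490.4, 3932 and 253929.7 in males, so 1 male library was high in this genotype too.

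The sex difference itself was then compared between the genotypes in the same fit. It differed in 6 genes (0.048%), 2 with a more female-biased (0.016%) and 4 with a more male-biased (0.032%) value in H3.3K36R, and 670 genes had an unadjusted p below 0.05. The number was 38 by DESeq2 and 23 with library weights, 6 by edgeR, and 4 with all 24 libraries or in a fit of the compared groups alone. Bin1 (3R from 16186156 to 16189564), the homologue of the Sin3-associated protein SAP18, had 884, 798 and 855 normalized counts in females, against 284, 299 and 342 in males in H3.3K36R heads, and 296, 365 and 311 in females against 331, 309 and 249 in males in H3.3Anull heads. Its sex difference was 1.46 in H3.3K36R and 0.13 in H3.3Anull, a difference of 1.32 ± 0.18 (adjusted p = 0.00805). The H3.3K36R females thus stood above all other old libraries for Bin1, whose locus overlaps the genes sra and CG8927 on the other strand. Tig, the extracellular matrix protein tiggrin, had 19145, 12305 and 10884 normalized counts in females, against 29841, 25524 and 27753 in males in H3.3K36R heads, and 8292, 8178 and 7986 in females against 3671, 4664 and 4739.9 in males in H3.3Anull heads. The direction of Tig was thus male-biased in one genotype and female-biased in the other (−1.01 and 0.91, difference −1.93 ± 0.30, adjusted p = 0.0147). CG12766, an aldo-keto reductase family gene, had 220.1, 111 and 153 normalized counts in females, against 23.9, 32.1 and 33.5 in males in H3.3K36R heads, and 44.7, 43.4 and 28.2 in females against 80.1, 43.2 and 33.8 in males in H3.3Anull heads (difference 2.72 ± 0.44, adjusted p = 0.0159). CG6870, which overlaps Sytalpha on the other strand, had sex differences of −0.23 in H3.3K36R and 1.16 in H3.3Anull (adjusted p = 0.0159). The repeated 28SrRNA-Psi:CR40596 had −2.57 and 1.19 (adjusted p = 0.0147).

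The number of such genes rested on single libraries. It was 3 without H3.3K36R female replicate 1 or male replicate 2, 1 without H3.3K36R female replicate 3 or H3.3Anull male replicate 1 or 2, and 10 without H3.3Anull female replicate 1. Tig and 28SrRNA-Psi:CR40596 lost the call in the 3 cases that left 1 gene (adjusted p between 0.051 and 0.0547, and 0.0503 and 0.0547). CG6870 lost it without 6 of the 12 libraries (0.0503 to 0.0647) and CG12766 without 7 (0.051 to 0.0828), whereas Bin1 kept it without any 1 library. Of the genes with large sex differences in H3.3K36R, several had smaller values in H3.3Anull without passing this test. fiz had −3.52 in H3.3K36R and −0.36 in H3.3Anull (adjusted p of the difference 0.315), CG33462 had 5.15 and 1.07 (0.719), and lncRNA:CR46482 had 3.87 and 1.52 (0.0938).

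**Figure D5:**
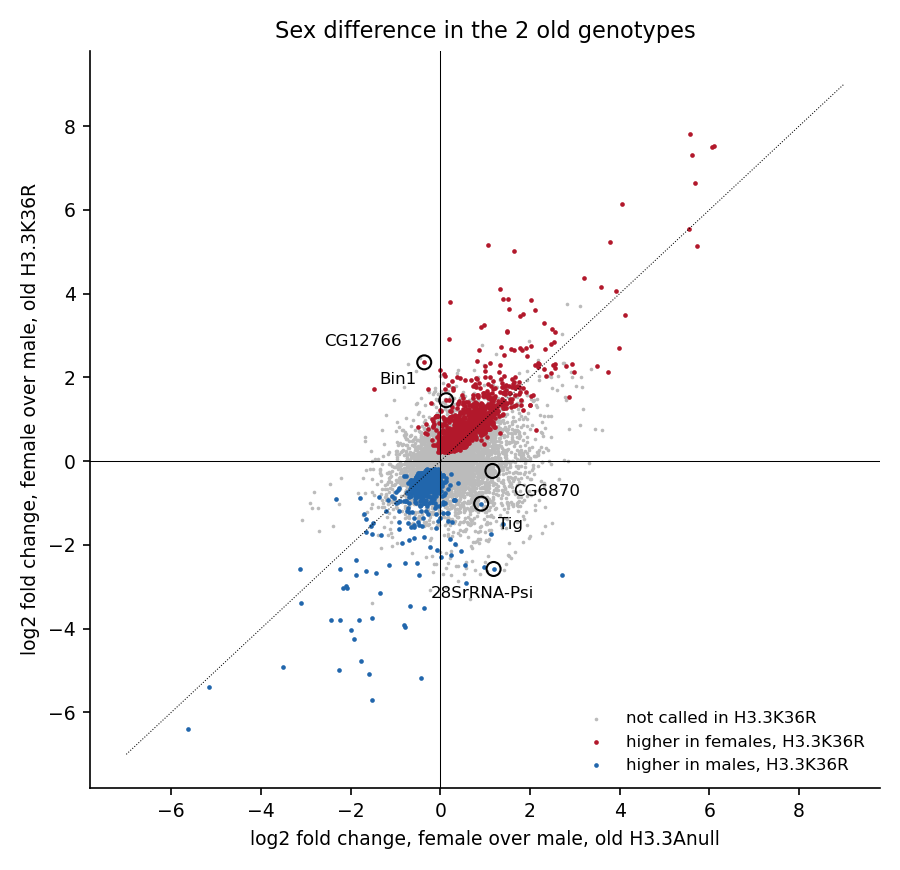
Log2 fold change, female over male, of each tested gene in old H3.3K36R heads (vertical axis) against that in old H3.3Anull heads (horizontal axis), with a dotted line where the values are equal. Red and blue points are genes called higher in females and in males in H3.3K36R, and the circled genes are the 5 with the smallest p for a difference of the sex contrast between genotypes.

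Young H3.3K36R heads, 0 to 2 days old, gave 193 genes (1.54%) with 3 female and 2 male libraries, 113 toward females (0.905%) and 80 toward males (0.64%). Of the genes of old H3.3K36R heads, 71 were also called toward females and 55 toward males at this age, which is 5.71% and 4.55% of the old lists and 62.8% and 68.8% of the young lists. The median log2 fold change over the 1244 female-higher genes was 0.76 in old heads, the contrast that chose them, and 0.22 in young heads. Over the 1210 male-higher genes it was −0.46 in old heads and −0.11 in young heads. Of the 2 young males, replicate 3 had 56504 normalized counts of Yp1 and replicate 1 had 1271. The number called in young heads was 69 without female replicate 1, 84 without female replicate 2 and 1459 without male replicate 1, and a test with 1 male library takes its spread from the other groups.

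The sex difference changed with age in 17 genes (0.136%), 14 of them (0.112%) more female-biased and 3 (0.024%) more male-biased in old heads, and 2359 genes had an unadjusted p below 0.05. The number moved with the method, being 410 by DESeq2, 4 by edgeR, 0 with library weights (1352 at an unadjusted p below 0.05), 1 in a fit of the compared groups alone, 78 with all 24 libraries, 8 with no filter and 26 at a minimum of 50 normalized counts. Bin1 had the smallest p, with sex differences of 1.46 in old and −0.05 in young heads (old minus young 1.51 ± 0.19, adjusted p = 0.00285). It was also first between the genotypes, but both tests hold the same old H3.3K36R libraries and are not independent. Its young values were 214, 232 and 254 in females, against 226 and 256 in males. Dhdds, the enzyme that elongates dolichol chains, had 1.17 in old and −0.35 in young heads (difference 1.53, adjusted p = 0.0295). Neither gene was called in young heads (adjusted p = 0.923 for Bin1 and 0.375 for Dhdds). GstE9, a glutathione transferase, had 0.29 in old and −1.37 in young heads (difference 1.66, adjusted p = 0.0302). Cyp9b1 had 1.25 in old and −0.13 in young heads (difference 1.37, adjusted p = 0.0372). lncRNA:CR44922 had −0.74 in old and 0.20 in young heads (difference −0.93, adjusted p = 0.0302). Of these 5 Bin1 lost the call without 1 library, young male replicate 3 (adjusted p = 0.0719). Dhdds lost it without 2 libraries (0.105 and 0.189), lncRNA:CR44922 without 3 (0.0599 to 0.189), GstE9 without 5 (0.0575 to 0.189) and Cyp9b1 without 5 (0.0599 to 0.189). This count was the least stable. Among old libraries it was 7 without female replicate 1, 1 without male replicate 2, 28 without female replicate 3 and 3 without male replicate 3. Among young libraries it was 58 without female replicate 1, 4 without female replicate 2, 3 without female replicate 3, 2027 without male replicate 1 and 0 without male replicate 3, where 1073 genes had an unadjusted p below 0.05.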

How the data were processed

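Whole-head total RNA was sequenced in 24 libraries, 3 for each of 8 groups of age, sex and genotype. The authors aligned reads to dm6 with STAR 2.7.7a, counted them per gene with featureCounts of Subread 2.0.3 and deposited counts divided by DESeq2 1.34.0 size factors (normalized counts, a signal proportional to reads), including the 1 library they later removed. Their annotation release is not given in the sources used here, and neither is a strand setting spelled out in the methods. Leaving out young male H3.3K36R replicate 2 brought each gene's mean over the remaining libraries to within 0.333% of the study's mean table for 483 genes. This library was therefore taken to be the one removed, and 23 libraries were used. Every deposited value was a whole multiple of its library's value for 1 read (100% within 0.01 read), which gave the reads per library and allowed the count tests.

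Genes with at least 10 normalized counts in 3 libraries were tested on log2(normalized count + 1) with limma 3.58.1 in R 4.3.3, 1 fit of the 8 groups, with trended moderated variance and Benjamini-Hochberg adjustment over 12493 genes at a threshold of 0.05. Fold changes are on the log2(value + 1) scale, which understates those of low genes, and were tested two-sided. Differences of sex contrasts between genotypes or ages were taken from the same fit. X-linked levels were compared over libraries by an exact permutation test (scipy 1.17.1). Positions and symbols of 17527 genes came from the BDGP6.54 annotation, an assembly identical in sequence to dm6. The 12 genes with the largest log2 fold change in each direction were named among called genes with no overlap between the 6 libraries and a mean of at least 50 normalized counts, with the 5 smallest p-values of each difference of sex contrasts and members of gene lists. The genes and lists were chosen with earlier results of these data known. Replicates are separate pools of flies.

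Alternatives were pseudocounts of 0.5 and 5, no filter or a minimum of 50, upper-quartile scaling, edgeR 4.0.16 and DESeq2 1.42.0 on the recovered reads, library weights, a replicate block, all 24 libraries, only the groups compared, and each library left out. The model script was tested on simulated data. No 2 replicates agreed within sampling noise.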

Additional observations from a re-analysis of the deposited data

Results flagged for a closer look

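The sex difference of 5 genes stood out because it differed between the genotypes by the test of the difference itself, with the smallest p-values of that test in limma. In units of log2, old H3.3K36R minus old H3.3Anull, the difference was 1.32 for Bin1, 2.72 for CG12766, −1.93 for Tig, −1.40 for CG6870 and −3.76 for 28SrRNA-Psi:CR40596. CG12766 reads were few outside the old H3.3K36R females, and 28SrRNA-Psi:CR40596 lies in repeated ribosomal DNA.

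Another set of 5, which again holds Bin1, stood out because the sex difference in H3.3K36R heads differed between the ages. Both sets draw on the same old H3.3K36R libraries. Old minus young, the difference was 1.51 for Bin1, 1.53 for Dhdds, 1.66 for GstE9, 1.37 for Cyp9b1 and −0.93 for lncRNA:CR44922. GstE9 overlaps the immune gene imd on the other strand.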

How the results depend on the processing

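Of 2305 values for 133 named results, gene by gene, 2108 kept direction and side of the threshold, 145 lost the call, 41 gained it and 11 changed sign, and 404 of the 405 values of the 24 genes with the largest differences kept both. The number of sex-biased genes in old H3.3K36R heads was within 1.5 times of 2454 under every alternative but 1 left-out library (leave-one-out range 1581 to 2276). The cause was not tested for any of the shifts that follow. In old H3.3Anull heads library weights gave 2514 genes, and leaving out 1 library gave 840 to 1477. In young H3.3K36R heads edgeR gave 107, DESeq2 395, library weights 3 and a fit of only the groups compared 2, with 69 to 1459 when 1 library was left out. Genes whose sex difference differed between genotypes were 38 by DESeq2 and 23 with library weights, and 1 to 10 with 1 library left out. Genes whose sex difference differed between ages were 8 with no filter, 26 at a minimum of 50 normalized counts, 4 by edgeR, 410 by DESeq2, 0 with library weights (1352 at an unadjusted p below 0.05 in limma), 78 with all 24 libraries and 1 in a fit of only the groups compared, and 0 to 2027 with 1 library left out. The X minus autosome difference lay between 0.11 and 0.16 with 1 library left out. Genes near 0 changed sign. RpS5b had 0.14 and to had 0.071 with library weights, and Set2 had −0.014 under upper-quartile scaling. With 1 library left out, RpS5b ranged between −0.36 and 0.43, to between −0.27 and 0.31, Ilp3 between −0.14 and 0.26, Set2 between −0.062 and 0.17, NSD between −0.13 and 0.058 and dsx between −0.000555 and 0.14.

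With the replicate number as a block, 2707 genes were called in old H3.3K36R heads, and 35 for the difference between ages. Residuals of females and males of the same number correlated at 0.382, 0.0683 and 0.417, and each female library correlated best with the male of its own number, but 1 pair lay below 0.1 and no label ties the numbers to a shared batch. The main fit did not use the replicate number, and whether it marks a shared batch was not tested. Pools of flies set the precision, since 3 libraries a group allow no exact permutation p below 0.1, and genes under 10 normalized counts were not tested.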

Other observations

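Groups of genes outside the lists above, chosen after their values were seen, were also called mostly toward females in old H3.3K36R heads, and they are described without a test. Of 41 translation initiation factor genes tested 20 were higher in females and none in males, with a median log2 fold change of 0.30, against 9.96% of all tested genes and a median of −0.04. In old H3.3Anull heads 19 of these were called toward females, against 7.02% of all tested genes. The number in H3.3K36R was 15 under upper-quartile scaling and 13 without female replicate 1 or male replicate 3. Of 32 aminoacyl-tRNA synthetase genes 11 were higher in females and none in males (median 0.18), 6 without female replicate 1 and 7 without male replicate 2 or male replicate 3. Of 41 genes for translocation into the endoplasmic reticulum and for COPI and COPII vesicle coats 17 were higher in females and 1 in males (median 0.31), and 8 were higher in females without female replicate 1 and 11 without male replicate 2 or male replicate 3. Small nucleolar RNAs had 31 of 125 tested members higher in females and none in males (median 0.64). Of the 31, 29 overlap another gene on the same strand, so their reads cannot be told apart from those of the host gene. Old H3.3Anull heads had similar numbers toward females. They were 10 synthetase genes (median 0.14), 15 translocation and coat genes (median 0.33) and 32 small nucleolar RNAs (median 0.67).

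Of 72 tested genes for mitochondrial ribosomal proteins 2 were higher in females, against 9.96% of all tested genes, with a median of 0.07, and 4 with library weights. Of 40 proteasome subunit genes 1 was higher in females (median 0.24), 4 without female replicate 3 and 7 with library weights. Among genes of neurons, 2 of 10 nicotinic acetylcholine receptor subunits were higher in males, against 9.69% of all tested genes, and none in females (median −0.36). The number was 7 in a fit of the compared groups alone, 5 with library weights and 0 or 1 with 1 library left out. Of 33 ionotropic receptors 3 were higher in males, near the 9.69% of all tested genes, and none in females (median −0.15, and between −0.34 and 0.05 with 1 library left out).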
